A study of Mus musculus with 10 samples.

Results

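Gene models within 10 Mb of Ednrb on mouse chromosome 14 were examined for differences between Ednrb-/- and WT neural tube explants. They were taken by position in the deposited table: start within 10 Mb of Ednrb, any biotype, and an FPKM (fragments scaled by the length of the model and the depth of the library) above 0 in at least 1 library. Ednrb, Spry2 and Pou4f1 were left out. Of 101 models in the window, 3 were left out by name and 51 were listed at 0 in every library, which leaves 47 members of the 42465 models in the table. The members are 28 protein-coding genes, 7 unnamed transcripts that the authors added, 5 processed pseudogenes, 3 processed transcripts, 3 snRNA genes and 1 antisense gene.

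The libraries come from cultured neural tubes of mouse embryos taken at embryonic day 9.5, which contain neural crest cells, the migratory source of pigment cells, peripheral glia and enteric neurons. Explants were Ednrb-/- or WT, with 5 biological replicates of each genotype. Both were kept for 4 days in DMEM with 10% fetal bovine serum, L-glutamine, gentamicin and 20 nM EDN3, a peptide ligand of the receptor that Ednrb encodes. The study asked how melanoblasts, which become pigment cells, proliferate. The labels name neither the mouse strain nor the Ednrb allele, and they do not say whether embryos were pooled.

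Genes that lie near a targeted gene are inherited with it. In mice made from embryonic stem cells of another strain, a stretch of donor chromosome can remain around the allele through many backcrosses. A targeted allele can also change the transcription of its neighbours, for example through an inserted cassette or a lost regulatory element. Whether either applies to these animals was not tested. The comparison by distance gives which transcripts around the allele differed between the genotypes.

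Ednrb itself had 5.89, 11.7, 7.83, 8.01 and 2.34 FPKM in Ednrb-/- replicates 1 to 5, against 55.6, 55.5, 45.8, 43.8 and 60.7 FPKM in WT replicates 1 to 5. All Ednrb-/- libraries were below all WT libraries. The table places it at 104372554 to 104403009 of chromosome 14, minus strand, so its 5′ end faces the distal side, away from the centromere. Coordinates are those of the file, whose identifiers name the C57BL/6NJ strain assembly. By symbol, 33 members were found in the RefSeq annotation of GRCm38.p6, all 33 on chromosome 14 and in the same order.

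The upstream sequences of 4 members are shown because the text turns on these genes: Kctd12 and Slitrk6, which fell, Uchl3, which rose, and Slain1, the nearest protein-coding gene that entered the test. Each is the 250 bases before the gene's start, 5′ to 3′, from RefSeq's GRCm38.p6, with CG dinucleotides in capitals. The table of start regions held 23 members by symbol, and the 4 starts used here are also the first base of a GENCODE M21 transcript.
Kctd12 (chr14:102982638-102982887, minus strand): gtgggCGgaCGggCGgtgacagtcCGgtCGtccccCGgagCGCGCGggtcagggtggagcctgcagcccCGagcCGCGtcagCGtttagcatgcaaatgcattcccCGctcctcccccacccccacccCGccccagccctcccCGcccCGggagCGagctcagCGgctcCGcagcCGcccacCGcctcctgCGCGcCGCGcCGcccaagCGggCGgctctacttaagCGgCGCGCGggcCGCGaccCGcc
Slain1 (chr14:103649978-103650227, plus strand): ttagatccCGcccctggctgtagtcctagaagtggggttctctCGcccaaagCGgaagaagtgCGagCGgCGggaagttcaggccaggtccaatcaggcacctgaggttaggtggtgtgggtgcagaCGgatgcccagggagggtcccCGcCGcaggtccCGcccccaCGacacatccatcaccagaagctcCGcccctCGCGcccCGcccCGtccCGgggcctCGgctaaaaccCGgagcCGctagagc
Uchl3 (chr14:101653717-101653966, plus strand): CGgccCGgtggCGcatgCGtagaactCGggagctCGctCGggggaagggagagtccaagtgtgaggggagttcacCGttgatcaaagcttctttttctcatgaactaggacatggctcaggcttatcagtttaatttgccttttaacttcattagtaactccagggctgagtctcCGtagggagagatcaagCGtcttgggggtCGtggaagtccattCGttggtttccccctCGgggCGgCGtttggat
Slitrk6 (chr14:110755150-110755399, minus strand): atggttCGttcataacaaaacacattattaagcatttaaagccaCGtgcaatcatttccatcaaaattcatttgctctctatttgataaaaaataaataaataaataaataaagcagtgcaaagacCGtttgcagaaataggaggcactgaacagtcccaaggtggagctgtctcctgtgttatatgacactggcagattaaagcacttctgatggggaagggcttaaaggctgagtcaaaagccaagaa
The stretches hold 36, 20, 15 and 3 CG dinucleotides in Kctd12, Slain1, Uchl3 and Slitrk6, where the median over 32851 start regions of the same length is 6. The 2 members shown that fell differ in this count: 97.4% of start regions hold fewer than Kctd12 and 29.0% fewer than Slitrk6. None of the 4 holds ACAAAG, a form of the SOX core, or CATGTG, an E-box that MITF can bind, searched on both strands. Of all start regions 16.5% and 12.3% hold them. Other forms of the SOX core and of the E-box were not searched, so SOX or MITF sites may still be present. The Uchl3 stretch holds TCAAAG, which differs from ACAAAG in its first base, and the Slitrk6 stretch holds the E-box form CACGTG.

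Of the 47 members, 27 reached 0.5 FPKM in 5 or more of the 10 libraries and entered the test, 22 of them protein-coding. In Ednrb-/- explants 4 rose and 5 fell (limma on log2(FPKM + 0.5), Benjamini-Hochberg over 15156 genes, threshold 0.05). Over all genes tested 6.53% rose, 13% fell and 19.5% changed in either direction. The higher members were the unnamed transcript beside Ednrb, Slain1, Uchl3 and Mzt1. The lower members included Kctd12, Klf5, Slitrk6 and the snRNA gene Gm24207. The median log2 fold change, Ednrb-/- over WT on that scale, was 0.15 over the tested members and 0.0048 over all genes. The higher count was 2 without WT replicate 3, 4 or 5 or without Ednrb-/- replicate 1, 2, 3 or 5, and the lower count was 3 without WT replicate 4 or 5 or without Ednrb-/- replicate 3 or 5. The unnamed transcript beside Ednrb and Gm24207 each entered the test through 1 genotype only, so they had to differ. Without them 3 members were higher and 4 lower. In 2 tested members every Ednrb-/- library lay above every WT library, as in 4.78% of all genes tested. In 4 tested members every Ednrb-/- library lay below every WT library, as in 8.44% of all genes tested. Without the unnamed transcript and Gm24207 these counts were 1 and 3.

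**Figure D1:**
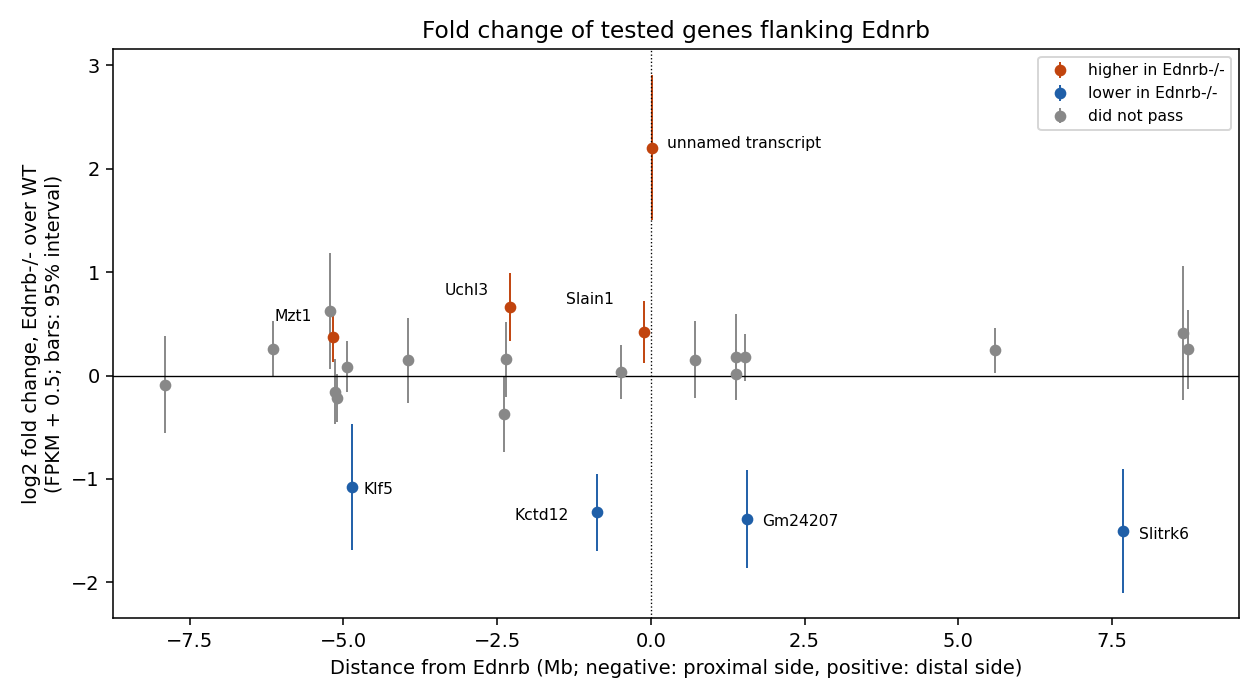
Log2 fold change (Ednrb-/- over WT, FPKM + 0.5) of the 25 tested members reported singly against distance from Ednrb in Mb, with 95% intervals from limma; colours mark members that passed the threshold. Members that passed lie between members that did not. The highest value, 2.21, belongs to the transcript nearest to Ednrb, which met the filter through the Ednrb-/- libraries alone and so had to differ.

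The nearest member to Ednrb on either side also had the highest fitted fold change, though it met the filter through the Ednrb-/- libraries alone. This unnamed transcript starts 14.3 kb beyond the 5′ end of Ednrb, at 104417304, and ends at 104425506 on the plus strand, so that it points away from the receptor gene. It spans 8203 bases, of which 515 were counted as transcript. Ednrb-/- replicates 1 to 5 had 1.57, 4.77, 1.59, 2.62 and 0.913 FPKM, against 0.118, 0.125, 0, 0 and 0 FPKM in WT replicates 1 to 5. The reads behind these values numbered 16, 32, 15, 22 and 8 in Ednrb-/- libraries, against 1, 1, 0, 0 and 0 in WT libraries. Every Ednrb-/- library held it and no WT library held more than a single read.

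Over each genotype's libraries that is 93 reads in Ednrb-/- and 2 reads in WT, a ratio of 43.9 per read sequenced. Its fitted log2 fold change was 2.21. The ratio and the fold change are given as a description, since the transcript met the filter through the Ednrb-/- libraries alone. The gene table has no name or description for it. In the RefSeq annotation of GRCm38.p6, a long noncoding RNA model, Gm35197, has a span that contains Ednrb and runs past its 5′ end; whether the unnamed transcript is part of it was not determined, since the builds differ.

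**Figure D2:**
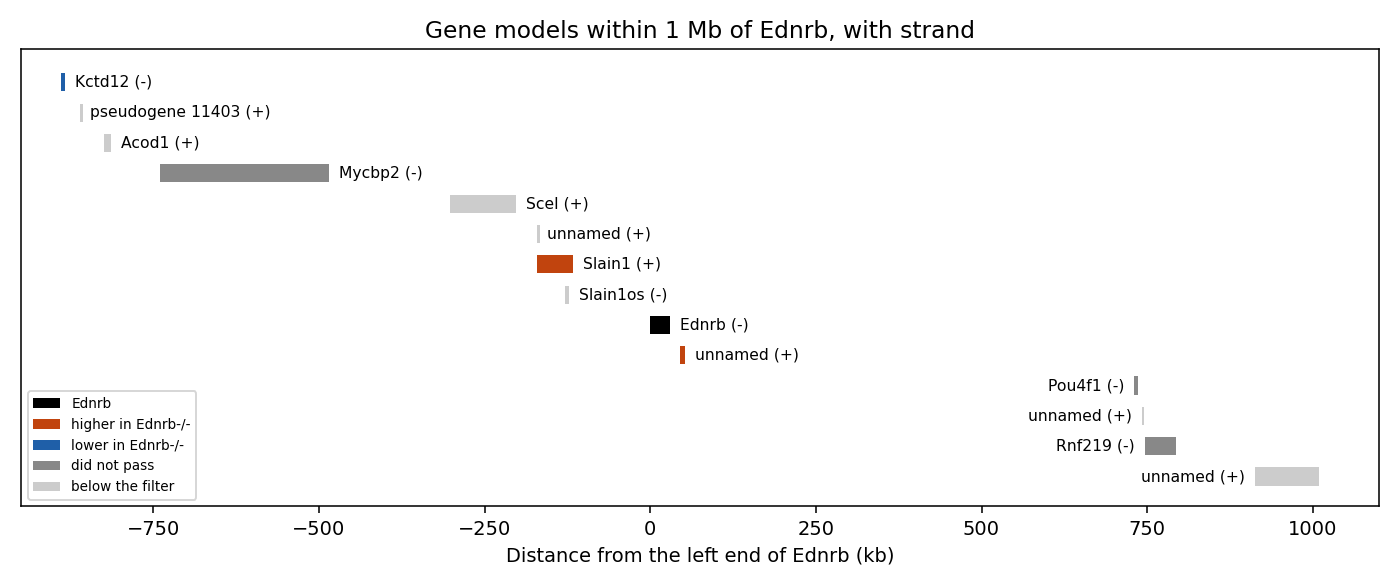
Gene models with reads within 1 Mb of Ednrb, without members not reported singly, 1 model per row, with the x axis in kb from the left end of Ednrb and the strand in brackets; colours mark the call. Between Slain1 on the left and Pou4f1 on the right, the unnamed transcript beside Ednrb is the sole other model that had reads.

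Within 1 Mb of Ednrb, 14 members lie and 7 were tested, of which 2 rose and 2 fell. Slain1, which encodes a microtubule plus-end protein that promotes microtubule growth, is the nearest protein-coding member that was tested, 117 kb from Ednrb on the proximal side. It had 12.9, 14.2, 14.8, 11.2 and 12.9 FPKM in Ednrb-/- libraries, against 8.41, 13.9, 8.85, 8.90 and 9.16 FPKM in WT libraries. WT replicate 2 lay among the Ednrb-/- libraries, and the other WT libraries lay below them. The log2 fold change was 0.42 with a standard error of 0.14 (limma, adjusted p = 0.0496, from 0.00258 to 0.113 with 1 library left out), and 8 of the 10 left-out fits did not pass. Slain1os, an antisense model inside Slain1, had at most 24 reads in a library. Nothing states that counting was stranded, so reads of the pair cannot be told apart.

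Kctd12, an auxiliary subunit of GABA-B receptors, had the largest fall within 1 Mb. It lies 883 kb from Ednrb on the proximal side, from 103483392 to 103489448 on the minus strand. Its FPKM were 8.73, 8.34, 6.02, 7.08 and 6.92 in Ednrb-/- libraries, against 20.1, 20.7, 15.9, 14.1 and 27.7 in WT libraries. The groups did not overlap, as for 13.2% of all genes tested. The log2 fold change was -1.32 with a standard error of 0.17 (limma, adjusted p = 0.00276), between -1.43 and -1.19 with 1 library left out.

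Mycbp2 and Rnf219, also within 1 Mb, did not pass. Mycbp2, a large ubiquitin ligase of axons 485 kb away, averaged 18.9 ± 2.57 FPKM in Ednrb-/- and 18.4 ± 2.69 FPKM in WT libraries (SD, n = 5 each), with a 95% interval of its log2 fold change from -0.22 to 0.30. Rnf219, a ubiquitin ligase linked to replication origins, lies 716 kb away on the distal side. It averaged 12.4 ± 2.87 FPKM in Ednrb-/- and 11.03 ± 2.19 FPKM in WT libraries, with an interval from -0.21 to 0.52. These intervals leave out a change as large as that of Kctd12 but not a small one.

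The share of tested members that passed was 57.1% (4 of 7) up to 1 Mb, 28.6% (2 of 7) over 1 to 2.5 Mb, 33.3% (1 of 3) over 2.5 to 5 Mb and 20.0% (2 of 10) over 5 Mb. The rest of chromosome 14 had 20.5% (99 of 483) and all genes 19.5%. The first band includes the unnamed transcript beside Ednrb and the second Gm24207, which had to differ. Without them the shares were 50.0% (3 of 6) up to 1 Mb and 16.7% (1 of 6) over 1 to 2.5 Mb, and Slain1, in the first band, lay close to the threshold. With 3 to 10 genes in a band, no trend with distance can be read from these shares. On the proximal side 6 of 17 tested members passed, 3 higher and 3 lower, and on the distal side 3 of 10, 1 higher and 2 lower. The distal member that was higher is the unnamed transcript beside Ednrb, and the 2 lower are Gm24207 and Slitrk6. The first 2 of these had to differ, so the counts do not compare the sides.

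**Figure D3:**
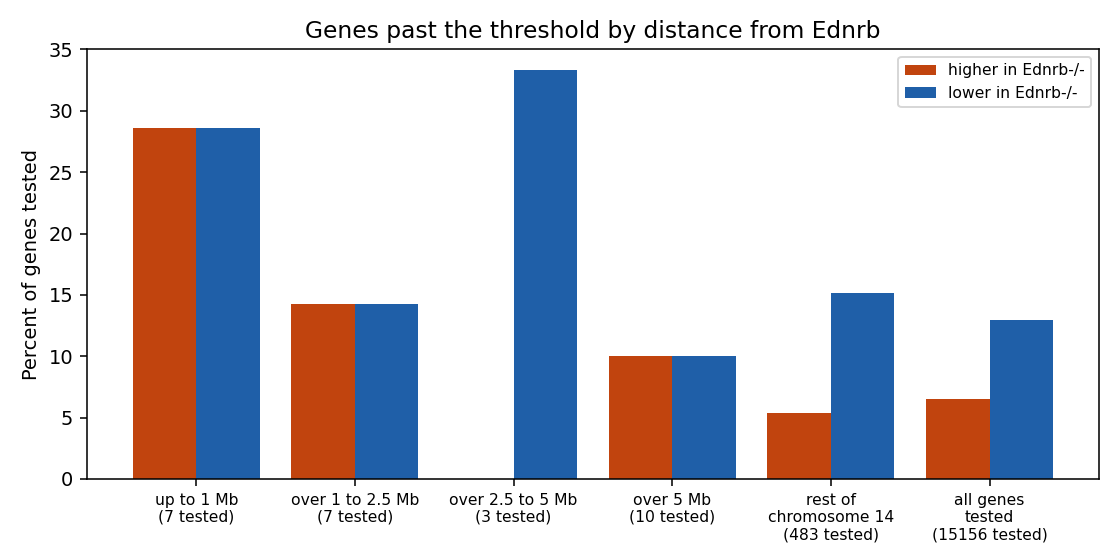
Percent of tested genes past the threshold, higher (left bars) and lower (right bars) in Ednrb-/-, in bands of distance from Ednrb, in the rest of chromosome 14 and over all genes tested. The bands hold 7, 7, 3 and 10 genes, so that 1 gene moves a bar by many points. The band up to 1 Mb includes the unnamed transcript beside Ednrb and the next band Gm24207, which had to differ. Without them, 50.0% of tested members up to 1 Mb and 16.7% over 1 to 2.5 Mb passed in either direction.

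Farther out, Uchl3, Klf5 and Slitrk6 differed with no overlap between the groups, as for 13.2% of all genes tested. Uchl3, a deubiquitinating enzyme 2.29 Mb away on the proximal side, had 37.4, 37.4, 40.0, 37.7 and 44.7 FPKM in Ednrb-/- libraries, against 34.1, 18.7, 19.9, 28.6 and 24.99 FPKM in WT libraries. All Ednrb-/- libraries lay above all WT libraries, and the log2 fold change was 0.66 with a standard error of 0.15 (limma, adjusted p = 0.0109). Uchl4, a near copy on chromosome 9 with which Uchl3 could share reads, averaged 2.30 ± 1.39 FPKM in Ednrb-/- and 1.52 ± 0.63 FPKM in WT libraries and did not pass (adjusted p = 0.409).

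Klf5, a zinc finger factor of epithelial and smooth muscle cells 4.87 Mb away, had 1.23, 2.19, 0.920, 2.00 and 1.16 FPKM in Ednrb-/- libraries, against 2.26, 2.29, 6.17, 4.19 and 4.22 FPKM in WT libraries. The groups just missed each other, with WT replicates 1 and 2 close to the highest Ednrb-/- library. Its log2 fold change was -1.07 with a standard error of 0.28 (limma, adjusted p = 0.0200, and from 0.0116 to 0.0541 with 1 library left out). Klf12, a repressor of the same family 3.95 Mb away, did not pass, at 10.7 ± 1.83 FPKM in Ednrb-/- and 9.78 ± 2.67 FPKM in WT libraries.

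The SLITRK genes encode neuronal transmembrane proteins with leucine-rich repeats that shape axons and synapses, and 3 of the family lie on the distal side. Slitrk6, known for its role in the inner ear and 7.68 Mb away, had 1.19, 1.502, 1.04, 1.97 and 1.41 FPKM in Ednrb-/- libraries, against 4.65, 4.02, 6.36, 2.52 and 8.85 FPKM in WT libraries. The groups did not overlap, and the log2 fold change was -1.503 with a standard error of 0.27 (limma, adjusted p = 0.00461), the largest fall among protein-coding members tested. Slitrk1 and Slitrk5 did not pass. Slitrk1 averaged 16.2 ± 1.73 FPKM in Ednrb-/- and 13.6 ± 1.40 FPKM in WT libraries, and Slitrk5 averaged 11.7 ± 2.92 FPKM in Ednrb-/- and 9.57 ± 1.85 FPKM in WT libraries. An unnamed transcript whose start is 370 bases from that of Slitrk5, on the opposite strand, did not pass either (limma, log2 fold change 0.41, adjusted p = 0.368).

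The following counts for relatives elsewhere in the genome stand beside 6.53% of all genes tested that rose and 13% that fell. Of Slitrk2, Slitrk3, Slitrk4 and the receptor phosphatases Ptprd, Ptprf and Ptprs, 6 were tested, 1 rose and 1 fell. Slitrk3 had 5.84 ± 1.17 FPKM in Ednrb-/- and 3.78 ± 0.29 FPKM in WT libraries, and Slitrk2 had 3.69 ± 0.68 FPKM in Ednrb-/- and 8.51 ± 1.89 FPKM in WT libraries (SD, n = 5 each). Among 11 tested Krüppel-like factors outside the window, 5 fell and none rose, with a median log2 fold change of -0.26, against 0.0048 over all genes tested. Of 4 tested GABA-B receptor and KCTD genes, partners of Kctd12, 1 rose, Gabbr1, at 51.1 ± 5.29 FPKM in Ednrb-/- and 39.6 ± 1.81 FPKM in WT libraries.

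A cluster of 4 cell division and RNA decay genes lies about 5 Mb from Ednrb on the proximal side, in 2 head-to-head pairs. Mzt1, a small subunit of gamma-tubulin complexes, and Bora, which helps Aurora A to activate Plk1, start 290 bases apart on opposite strands. Mzt1 had 55.0, 64.8, 50.8, 43.9 and 52.8 FPKM in Ednrb-/- libraries, against 46.6, 35.4, 40.3, 45.2 and 37.4 FPKM in WT libraries. Ednrb-/- replicate 4 lay below 2 WT libraries, and the log2 fold change was 0.38 with a standard error of 0.11 (limma, adjusted p = 0.0382, and from 0.0167 to 0.0966 with 1 library left out). Bora did not pass, at 8.96 ± 1.84 FPKM in Ednrb-/- and 9.94 ± 1.31 FPKM in WT libraries, with a 95% interval of its log2 fold change from -0.47 to 0.16.

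Dis3, the catalytic nuclease of the RNA exosome, and Pibf1, a protein of centriolar satellites, overlap by 338 bases at their starts. Neither passed. Dis3 averaged 12.1 ± 1.68 FPKM in Ednrb-/- and 14.03 ± 1.07 FPKM in WT libraries, and Pibf1 averaged 6.04 ± 0.88 FPKM in Ednrb-/- and 5.63 ± 0.44 FPKM in WT libraries (SD, n = 5 each). Of 14 tested spindle partners of Bora and Mzt1 outside the window 1 fell, Plk1, and of 12 tested exosome partners of Dis3 none changed by limma, where 19.5% of all genes tested changed.

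The protein-coding members Klhl1, Dach1, Tbc1d4, Commd6, Rbm26 and Ndfip2 did not pass. Klhl1, a neuronal actin-binding protein, averaged 1.61 ± 0.55 FPKM in Ednrb-/- and 1.70 ± 0.36 FPKM in WT libraries. Dach1, a transcriptional cofactor that works with Eya proteins, averaged 17.2 ± 2.77 FPKM in Ednrb-/- and 14.3 ± 1.83 FPKM in WT libraries. Tbc1d4, a Rab GTPase-activating protein that AKT phosphorylates, averaged 1.51 ± 0.35 FPKM in Ednrb-/- and 2.08 ± 0.36 FPKM in WT libraries, with an adjusted p = 0.150 by limma. Commd6, of the COMMD family that acts in endosomal recycling, averaged 18.0 ± 4.31 FPKM in Ednrb-/- and 15.9 ± 2.41 FPKM in WT libraries. Rbm26, an RNA-binding protein, averaged 16.4 ± 2.13 FPKM in Ednrb-/- and 16.2 ± 2.07 FPKM in WT libraries. Ndfip2, an adaptor of NEDD4 ubiquitin ligases, averaged 9.36 ± 0.44 FPKM in Ednrb-/- and 8.29 ± 1.13 FPKM in WT libraries.

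Among partners of these genes that lie elsewhere, of 6 tested genes of the Dach, Eya and sine oculis families 1 fell, of 8 NEDD4 ligases and Ndfip1 1 fell, and of 9 COMMD and CCC complex genes none changed by limma. Over all genes tested 13% fell and 19.5% changed, and a list of 6 to 9 genes is too short to be read against those shares. Other biotypes that did not pass included a transcript and a pseudogene. The transcript Gm17066, which lies within Rbm26 on the same strand, averaged 12.3 ± 1.36 FPKM in Ednrb-/- and 11.1 ± 3.44 FPKM in WT libraries. The processed pseudogene MGP_C57BL6NJ_G0011398, described in the file by a ribosomal protein L36A entry, averaged 18.2 ± 4.36 FPKM in Ednrb-/- and 12.2 ± 5.71 FPKM in WT libraries, and reads of the parent gene could be counted there.

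**Figure D4:**
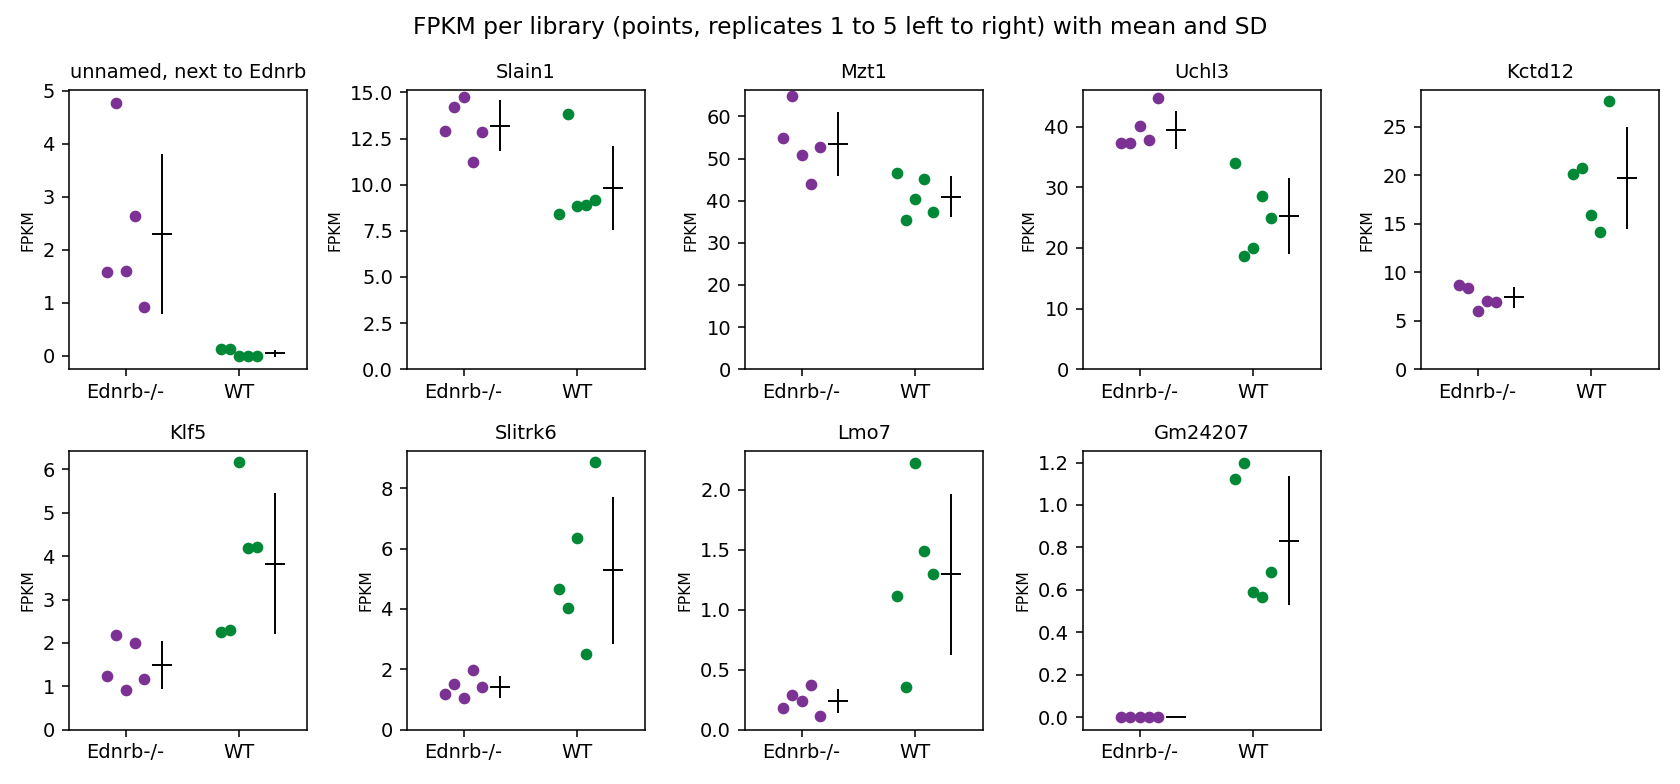
FPKM in each library for 8 members that passed and for Lmo7, Ednrb-/- left and WT right, with replicates 1 to 5 from left to right within a group and the mean and SD beside them. In Uchl3, Kctd12, Klf5 and Slitrk6 the groups do not overlap, as for 13.2% of all genes tested. The unnamed transcript and Gm24207 each met the filter through 1 genotype only, so their groups had to lie apart.

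Gm24207, an snRNA model of 108 bases inside Ndfip2 on the opposite strand, was listed at 0 in all 5 Ednrb-/- libraries and at 1.12, 1.20, 0.589, 0.566 and 0.686 FPKM in WT replicates 1 to 5. Those values rest on 1 or 2 reads per WT library, so no fold is given. It met the filter through the WT libraries alone, so its call says nothing further.

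Below the filter were 20 members, 6 of them protein-coding. Lmo7, a LIM domain protein of actin-based cell junctions 2.03 Mb from Ednrb, missed the filter because 4 libraries, all WT, reached 0.5 FPKM. It had 0.183, 0.292, 0.236, 0.372 and 0.117 FPKM in Ednrb-/- libraries, against 1.11, 0.357, 2.22, 1.49 and 1.30 FPKM in WT libraries. WT replicate 2 lay within the Ednrb-/- range and the other WT libraries above it. In the fit with no filter its log2 fold change was -1.20 with a standard error of 0.29 (limma, adjusted p = 0.0287). It was the only one of the 20 to pass there, where 9.03% of all 28144 genes fitted passed.

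Scel, an epidermal envelope protein and the protein-coding member nearest to Ednrb that fell below the filter, had between 0 and 0.250 FPKM in Ednrb-/- and between 0.0795 and 0.260 FPKM in WT libraries. Gm9922, whose model lies just before Lmo7 on the opposite strand, had at most 2 reads in an Ednrb-/- library and 4 in a WT library. The other members below the filter had at most 23 reads in any Ednrb-/- library and 24 in any WT library. The processed transcript 4930449E01Rik and an unnamed transcript had 12 and 6 reads, all in Ednrb-/- replicate 3. Another unnamed transcript had 2 and 6 reads in Ednrb-/- replicates 4 and 5. These were listed at 0 in all WT libraries. Some others had a single read, in a WT library, and were listed at 0 in all Ednrb-/- libraries. At the ends of the window, the outermost members were 4921530L21Rik, with 2 reads in 1 library of each genotype, and Slitrk5. Just outside them were Pcdh9, a protocadherin, at 9.66 ± 1.74 FPKM in Ednrb-/- and 10.1 ± 2.19 FPKM in WT libraries, and the snRNA model Gm24073, at 0 FPKM in Ednrb-/- libraries and 0.114 FPKM on average in WT libraries.

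The genes left out by name lie in the same stretch. Spry2, a feedback inhibitor of receptor tyrosine kinase signalling 2.20 Mb away, had 9.44 ± 1.87 FPKM in Ednrb-/- and 14.5 ± 2.08 FPKM in WT libraries (SD, n = 5 each; limma, adjusted p = 0.0135). Pou4f1, a sensory neuron factor 699.5 kb away, had 18.3 ± 6.48 FPKM in Ednrb-/- and 21.3 ± 4.85 FPKM in WT libraries and did not pass.

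Markers of several cell types differed between the genotypes alongside these members. In bulk RNA, fewer cells of a type and less RNA per cell cannot be told apart. The summed FPKM of the 11 smooth muscle markers ran from 66.0 to 352 in Ednrb-/- and from 373 to 2813 in WT libraries, with 10 of 10 tested markers lower. The 11 fibroblast-like markers summed to between 16.2 and 129 FPKM in Ednrb-/- and between 194 and 1063 FPKM in WT libraries (9 of 9 lower). Those below the filter were Lum and Pdgfra. Lum averaged 0.867 ± 1.39 FPKM in Ednrb-/- and 0.0446 ± 0.0458 FPKM in WT libraries. Pdgfra averaged 0.524 ± 0.452 FPKM in Ednrb-/- and 0.549 ± 0.414 FPKM in WT libraries. The 12 melanocyte markers summed to between 11.1 and 21.4 FPKM in Ednrb-/- and between 73.6 and 223 FPKM in WT libraries (7 of 8 lower), with Slc45a2 under 0.5 FPKM in every library. The 8 epithelial markers summed to between 1.38 and 16.4 FPKM in Ednrb-/- and between 22.3 and 67.1 FPKM in WT libraries (3 of 3 lower). The 3 tested were keratins, Krt8, Krt18 and Krt19. Cldn7 and Trp63 were under 0.5 FPKM throughout. Epcam, Cldn6 and Cdh1, also below the filter, averaged 0.136, 0.0238 and 0.103 FPKM in Ednrb-/- and 0.651, 0.572 and 0.353 FPKM in WT libraries. The 11 neuronal markers found summed to between 1803 and 2063 FPKM in Ednrb-/- and between 1114 and 1438 FPKM in WT libraries (11 of 11 higher). The 10 neural tube progenitor markers summed to between 228 and 262 FPKM in Ednrb-/- and between 201 and 330 FPKM in WT libraries (2 of 10 lower).

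With the mean level of the smooth muscle markers as a covariate, none of the 15156 genes passed, Ednrb included, and the cause was not tested. The tested markers were all lower in Ednrb-/- libraries, so the fit cannot tell genotype and marker level apart. The standard error of Ednrb was 0.31 without the covariate and 0.58 with it. With the covariate, 1231 of the 15156 genes and 7 of the 27 tested members had an unadjusted p under 0.05 by limma. The 7 include the unnamed transcript beside Ednrb and Gm24207, which entered the test through 1 genotype only, so the count is no measure of the members. In that fit the log2 fold changes of Kctd12, Slitrk6 and Klf5 were -1.35, -1.16 and -0.10, with standard errors of 0.32, 0.50 and 0.39. Those of Uchl3, Mzt1 and Slain1 were 0.77, 0.51 and -0.074 (standard errors 0.28, 0.21 and 0.18). The unnamed transcript beside Ednrb had 2.54 (standard error 0.60). That value is a description only, since the transcript met the filter through the Ednrb-/- libraries alone. Gm24207 is left out here because its values rest on 1 or 2 reads per WT library. The part of the other marker lists in these results was not tested.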

How the data were processed

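RNA was sequenced from 10 libraries, 5 Ednrb-/- and 5 WT, which the labels call biological replicates. The table holds FPKM per gene model and library, as deposited by the authors. Tools in the submitters' processing notes are HISAT2 2.0.5, featureCounts 1.5.0-p3 and fastp, with mm10 as the build, while the identifiers are of C57BL/6NJ; no label states strand use. There were 0 further columns of per-sample values. Columns were matched to samples by genotype and replicate number.

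FPKM times model length gave whole reads for 100% of values within 0.01 of a read, summing to between 13022266 and 19532570 per library, so depth allowed values down to 1 read. Pairs of libraries of a genotype correlated between 0.925 and 0.979 on the log2 scale, and differed by more than sampling noise (mean chi-square per gene of at least 15.3, where noise gives about 1).

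The test was limma 3.58.1 in R 4.3.3 (limma-trend) on log2(FPKM + 0.5), genotype only, for genes with 0.5 FPKM or more in 5 or more libraries, adjusted over all 15156 genes. Rose and fell mean an adjusted p under 0.05. Fold changes understate the change of low genes. The fit was tested on simulated data. Distance is the gap between gene bodies.

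Results of 2 tested members are not reported here singly, though counts include them. Named genes were every other tested protein-coding member, other biotypes past the threshold or among the 3 highest, and the 4 protein-coding members below the filter with most reads. Members and lists were chosen with earlier results of these data known. Alternatives changed the pseudocount, filter, scaling, test, window, covariate, block and libraries.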

Additional observations from a re-analysis of the deposited data

Results flagged for a closer look

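Chance puts about 1 in 20 groups of 5 libraries past the limit used here for a library that stands apart, and 6 of 64 groups did. Slain1 had 13.9 FPKM in WT replicate 2, against 8.41 to 9.16 FPKM in the other WT libraries, and Bora had 12.2 FPKM in the same library, against 9.04 to 9.79 FPKM. Pou4f1 had 8.16 FPKM in Ednrb-/- replicate 4, against 18.8 to 26.3 FPKM in the other Ednrb-/- libraries, and 13.1 FPKM in WT replicate 5, against 21.3 to 25.01 FPKM in the other WT libraries. The model 4921530L21Rik had 0.106 FPKM in Ednrb-/- replicate 4 and 0.110 FPKM in WT replicate 3 and was listed at 0 in all others, on 2 reads each.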

How the results depend on the processing

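The counts of 4 higher and 5 lower members ranged from 2 to 4 and from 3 to 5 when 1 library was left out. They were 2 higher and 3 lower with the replicate block. Same-numbered libraries correlated between -0.163 and 0.153 in their deviations from the genotype means, and 0 of 5 Ednrb-/- libraries correlated best with their own number, so the numbers were not taken as pairs. With no filter 2 members were higher. With the smooth muscle covariate 0 were higher and 0 lower, and the sign of Slain1 (-0.074) reversed. Within 2.5 Mb 3 members were lower. Of 473 fits of single members under alternatives, 34 lost a call, 1 gained one (MGP_C57BL6NJ_G0011398 without WT replicate 1) and 1 reversed. Of the 7 members called that met the filter in both genotypes, 3 passed without any 1 library: Uchl3, Kctd12 and Slitrk6. Over all genes, 2956 calls became 1877 with the replicate block and 1945, 1960 and 1955 without WT replicates 3, 4 and 5; quantile normalization gave 1603 higher and 1730 lower, against 990 and 1966. The causes were not tested. Depth limits the low members most: 20 of the 47 were below the filter, and 7 of the 27 tested had under 100 reads in a library.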
